A study of Homo sapiens with 6 samples.

Results

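The genes described here encode enzymes that add or remove methyl and acetyl groups on histones: the lysine demethylases (KDM), the lysine methyltransferases of the KMT2 and SETD families, the deacetylases (HDAC and the sirtuins, SIRT) and the lysine acetyltransferases (KAT). They were taken by symbol from tables of 20683 genes. Of these, 62 symbols carried one of the 6 prefixes, antisense symbols and the katanin genes (KATN) being left out. The 62 were 19 demethylase, 16 methyltransferase, 18 deacetylase and 8 acetyltransferase genes, and KDM7A-DT, a noncoding transcript that runs divergently from KDM7A and encodes no enzyme. RNA came from HT-1080, an established human fibrosarcoma line, after 4 h with SLV-8472-01, which the series describes as an inhibitor of the kinase IRAK4 and which is known here by its code alone, or with 0.1% DMSO as the control. The labelled dose was 5 mM, and the labels do not say whether that was the concentration on the cells. Each group had 3 libraries, described as biological replicates.

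Acetyl groups on histone tails loosen chromatin and are read by bromodomain proteins, and deacetylases take them off. Methyl groups act by position: trimethylated H3K4 marks promoters, H3K36 the bodies of transcribed genes, and H3K9 and H3K27 silent chromatin. Most demethylases carry a JmjC domain and need oxygen, iron and 2-oxoglutarate, while KDM1A and KDM1B use FAD. HDAC enzymes are zinc-dependent and sirtuins need NAD. Several members act mainly on other proteins, as HDAC6 does on tubulin, SETD3 on actin, SETD6 on the NF-kB subunit RELA, and SIRT3, SIRT4 and SIRT5 in mitochondria.

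The inhibitor libraries held 7644478 to 11427779 counts and the DMSO libraries 12003104 to 15336351. Inhibitor replicate 3, which had the smallest total, lay at -23.6 on the second principal component, away from the other inhibitor libraries at 13.2 and 9.97. Levels are given as CPM, counts scaled to a common library total after TMM normalisation. The 10 mesenchymal markers summed to 7891 to 9924 CPM with the inhibitor and 7252 to 8316 CPM with DMSO, ranges that overlap. VIM and SPARC carried the sum. VIM averaged 6019 CPM with the inhibitor against 5648 with DMSO, and SPARC 2236 against 1782. COL6A3 averaged 37.8 against 19.45 CPM and FN1 375.2 against 267.7. COL6A3, FN1 and SPARC rose (edgeR quasi-likelihood test, adjusted p = 2.82e-05, 0.00364 and 0.0221). The other mesenchymal markers tested, VIM among them, were not called. TWIST1 alone had the lower mean with the inhibitor, 14.5 against 17.3 CPM, and THY1 had at most 1 count in any library. The part of these differences in the results was not tested. The 7 epithelial markers summed to 236 to 288 CPM with the inhibitor and 254 to 278 CPM with DMSO, carried by KRT8 and KRT18, with CDH1 at 0 counts. The leukocyte markers, with PTPRC and CD3E at 0 counts, and the 4 endothelial markers each summed to at most 1.49 CPM. Each gene was read by an amplified part of its transcript, so levels are compared between groups and not between genes.

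After 4 h with the inhibitor, 4 of 17 tested demethylase genes and 1 of 16 methyltransferase genes rose. Falls were called in 1 of 17 demethylase, 4 of 16 methyltransferase, 4 of 17 deacetylase and 1 of 8 acetyltransferase genes. A single fall in a class is no result about that class, given the share of all genes that fell. Of the 62 genes, 58 had enough counts to test, and 15 of them changed, 5 upward and 10 downward (edgeR quasi-likelihood test, Benjamini-Hochberg adjusted p under 0.05 over all genes). That was 25.9% of those tested, against 20.2% of the 11391 genes tested in all. Of all tested genes, 9.92% rose and 10.3% fell. With library totals alone as the scaling, 831 of all genes rose and 1714 fell, against 1130 and 1168 with TMM, and of the members 5 rose and 14 fell. The median log2 fold change (inhibitor minus DMSO) was -0.11 over the members and 0.0034 over all genes, and 41 of the 58 members lay below 0. With inhibitor replicate 1 left out 4 members fell, and 6 fell with inhibitor replicate 2 or DMSO replicate 1 left out and 5 with DMSO replicate 2 left out. Of all genes, 824, 846, 978 and 721 fell under these 4 settings, in that order. With inhibitor replicate 3 left out, 6 members rose and 10 fell, and 1133 of all genes rose and 1113 fell.

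**Figure D1:**
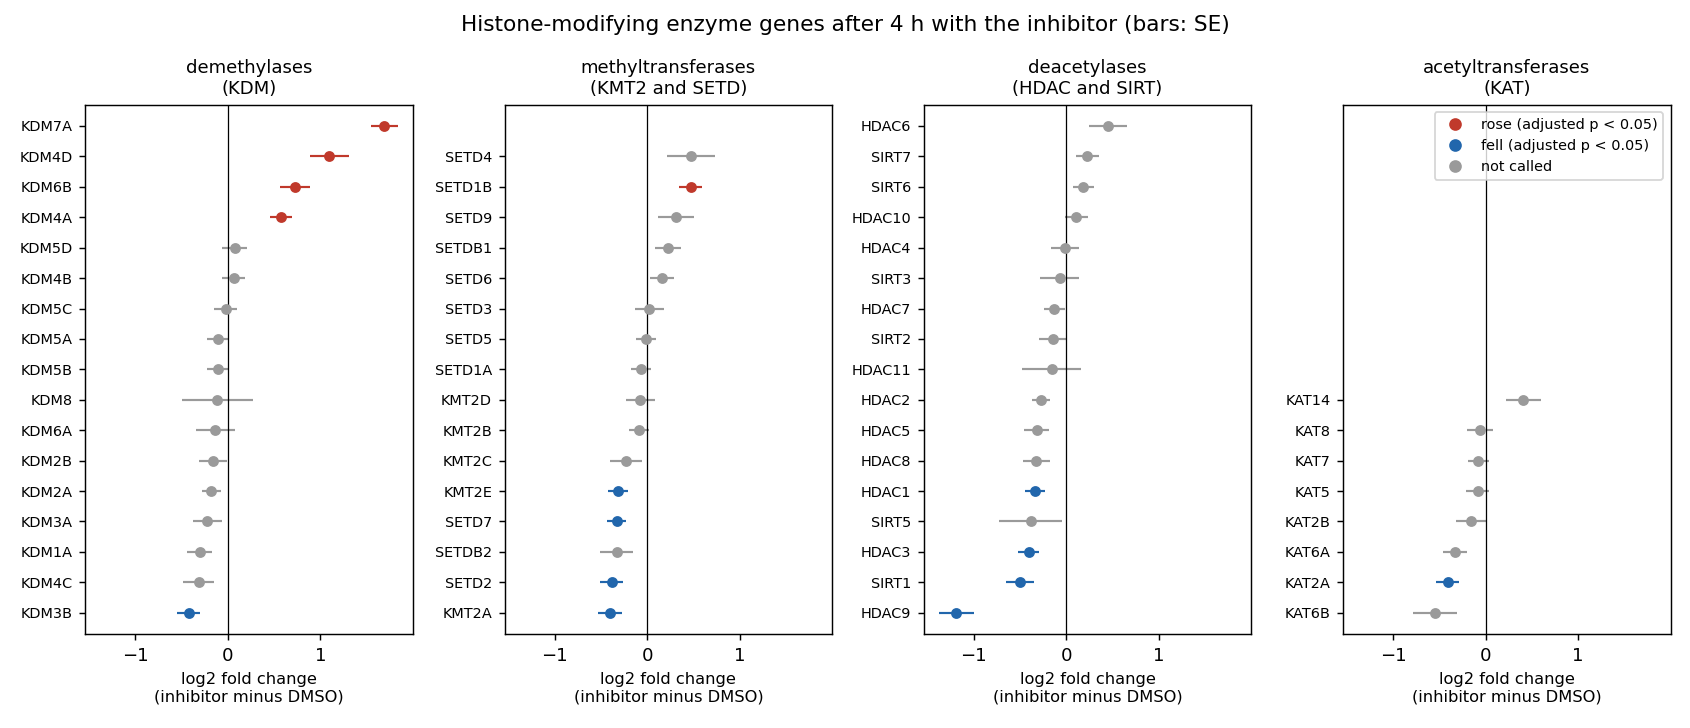
Log2 fold change of each of the 58 tested genes (points) with its SE (bars), in 4 panels by enzyme class and sorted by value. The 4 demethylase genes that rose, from 0.57 to 1.69, are set apart from the rest of their class, and HDAC9 at -1.19 lies below all other genes plotted.

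The demethylases held 4 of the 5 rises. Of 17 tested, 4 rose and 1 fell (29.4% called), and the same 4 genes were called upward with any single library left out. The median of the class was -0.11, and 11 of 17 lay below 0. The summed level of all demethylase genes was 520 ± 6.41 CPM in the treated libraries (SD, n = 3) against 519 ± 7.99 CPM in the controls.

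KDM7A, a JmjC enzyme that acts on the silencing marks H3K9me2 and H3K27me2, had the largest rise. Its level was 27.7, 39.2 and 37.4 CPM in the inhibitor libraries and 11.9, 9.56 and 10.7 CPM in the DMSO libraries. The lowest inhibitor library was thus above the highest DMSO library, and the difference was 3.22-fold (log2 fold change 1.69 ± 0.15, SE, adjusted p = 2.65e-08). Under the 14 alternatives the log2 fold change ran from 1.59 to 1.83. The divergent transcript KDM7A-DT was too sparse to test, with 21, 6 and 6 counts in the inhibitor libraries and 11, 5 and 4 in the DMSO libraries, and its groups overlapped at 0.653 to 1.88 CPM and 0.323 to 0.7002 CPM.

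KDM4D and KDM4A belong to a family that demethylates H3K9, and KDM4A also acts on H3K36. KDM4D was at 6.72, 7.83 and 6.03 CPM with the inhibitor and 2.80, 3.04 and 3.91 CPM with DMSO, a 2.14-fold rise (log2 fold change 1.10 ± 0.21, adjusted p = 7.33e-04) on counts of 44 to 75 per library. KDM4A was at 44.6, 43.2 and 33.9 CPM with the inhibitor and 26.6, 29.3 and 26.0 CPM with DMSO (0.57 ± 0.12, adjusted p = 0.00207). Neither gene overlapped between groups, and the smallest KDM4A difference was that of inhibitor replicate 3. The antisense gene KDM4A-AS1 had 3 to 12 counts per library and was not tested. If counting ignored strand, its reads cannot be told from those of KDM4A, and these counts cannot bound them. The other tested family members were not called. KDM4B stood at 0.06 ± 0.12 and KDM4C at -0.32 ± 0.17 on the log2 scale (adjusted p = 0.758 and 0.187), and whether they differ from KDM4A and KDM4D was not tested. KDM4E was not detected: 0 counts in each of the 6 libraries, a limit of 0.191 CPM in the deepest and 0.402 CPM in the shallowest, for counting error only.

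KDM6B, also called JMJD3, removes H3K27 methylation and is known as a gene switched on by inflammatory stimuli. It was at 14.1, 11.6 and 11.3 CPM with the inhibitor and 7.70, 7.17 and 7.65 CPM with DMSO, a rise of 1.65-fold (log2 fold change 0.72 ± 0.16, adjusted p = 0.00254). The groups were separate, with inhibitor replicate 1 the highest. Its relative KDM6A, which acts on the same mark, was not called at -0.14 ± 0.21 (adjusted p = 0.692), and the difference between the pair was not tested.

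The 1 demethylase gene that fell was KDM3B, an H3K9 enzyme. Its level was 34.5, 35.1 and 27.6 CPM with the inhibitor and 48.9, 40.9 and 40.9 CPM with DMSO (log2 fold change -0.42 ± 0.12, adjusted p = 0.0177). Its adjusted p was 0.0683 with inhibitor replicate 3 left out, 0.0961 with DMSO replicate 1 left out and 0.0792 with all libraries thinned to the smallest total. Its relative KDM3A was at -0.22 ± 0.15 and was not called (adjusted p = 0.326). The KDM5 genes, which encode H3K4 demethylases, lay between -0.11 and 0.08, with KDM5D the highest uncalled member of the class at 0.08 ± 0.14. KDM2A, an H3K36 enzyme that binds CpG islands, was at 95.8 ± 5.30 CPM with the inhibitor against 108 ± 11.3 and was not called (adjusted p = 0.255). The FAD-dependent KDM1A (LSD1) was at -0.31 ± 0.13 (adjusted p = 0.104), a difference called with DMSO replicate 1 left out (0.0454) and with library totals alone (0.0364) and under no other alternative. KDM1B was not tested, since its counts were only 7, 8 and 10 in the treated and 7, 13 and 10 in the control libraries.

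**Figure D2:**
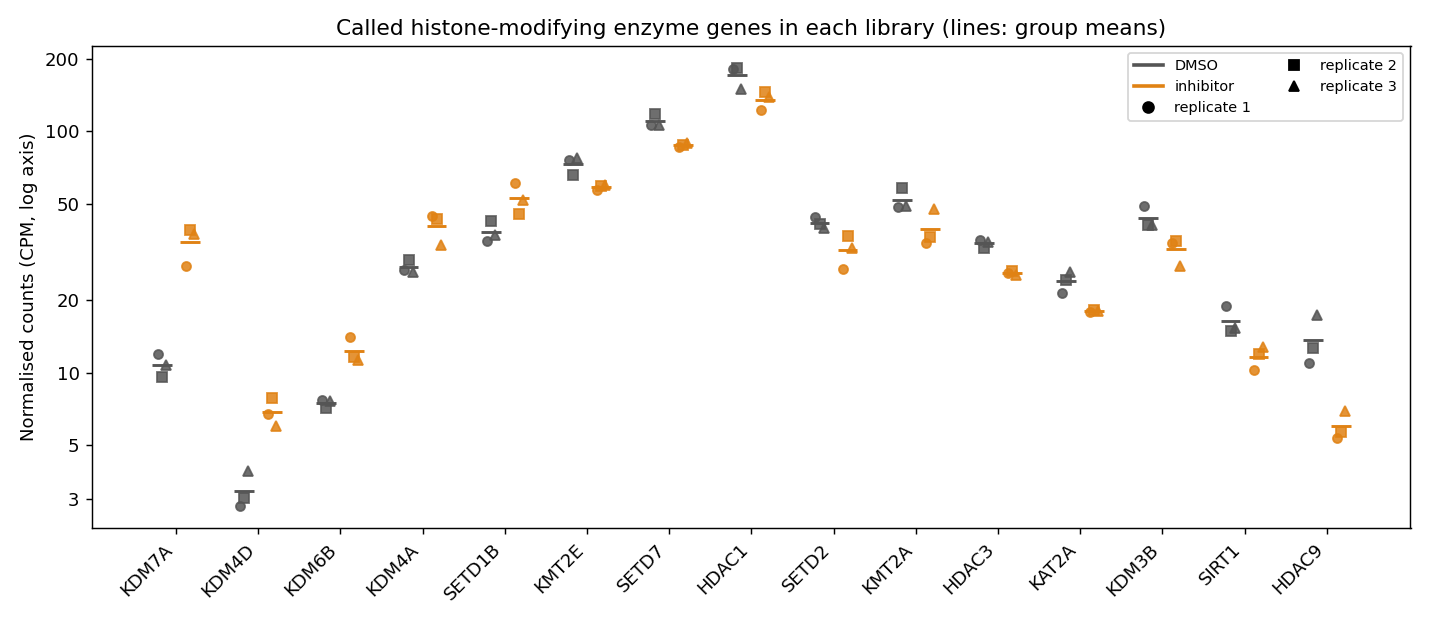
Normalised counts (CPM, log axis) of the 15 called genes in each of the 6 libraries, with group means as lines and replicates by symbol, ordered from the largest rise to the largest fall. KDM7A and HDAC9 show the widest gaps between groups, and in every gene plotted the 3 inhibitor libraries lie on one side of the 3 DMSO libraries. These genes were chosen by the test on the same 6 libraries, so that separation adds no support to the calls. It was found for 36.3% of all tested genes.

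The sequence before the start was read for the members from the RefSeq promoter table (GRCh38.p14), which held 84 starts of 56 of the 62 genes. The 250 bases upstream of each start were searched on both strands for 6 motifs, none of which contains another. These were the cAMP response element TGACGTCA, the C/EBP-ATF composite TGATGCAA, the AP-1 site TGACTCA, the hypoxia response element TACGTG, the E2F site TTTGGCGC and the NF-kB site GGACTTTCC. The 5 listed starts of KDM7A, KDM4D, KDM4A and KDM6B held 0 exact matches to any of these letters. Other spellings of the same elements were not searched, so the elements themselves may be present. SETD1B, the other gene that rose, was not in the table. Of the 84 member windows, 3 (3.57%) held the AP-1 site, against 4.20% of all 35116 windows, and 4 (4.76%) the hypoxia response element, against 2.76%. The cAMP response element was in 1 window, that of SIRT4, and the other motifs were in 0. Of the 10 genes that fell, HDAC3 alone held a match. The windows of the 2 largest rises among the members and of HDAC3 are shown, 5′ to 3′ on the gene's strand, with the one motif match in capitals. They lie at chr7:140176984-140177233 on the minus strand for KDM7A, chr11:94973459-94973708 on the plus strand for KDM4D and chr5:141636850-141637099 on the minus strand for HDAC3.
KDM7A: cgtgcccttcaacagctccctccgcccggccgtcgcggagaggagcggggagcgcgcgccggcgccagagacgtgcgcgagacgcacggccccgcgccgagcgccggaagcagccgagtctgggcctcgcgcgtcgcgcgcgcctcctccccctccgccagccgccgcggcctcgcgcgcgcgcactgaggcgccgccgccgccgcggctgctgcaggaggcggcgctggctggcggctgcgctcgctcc
KDM4D: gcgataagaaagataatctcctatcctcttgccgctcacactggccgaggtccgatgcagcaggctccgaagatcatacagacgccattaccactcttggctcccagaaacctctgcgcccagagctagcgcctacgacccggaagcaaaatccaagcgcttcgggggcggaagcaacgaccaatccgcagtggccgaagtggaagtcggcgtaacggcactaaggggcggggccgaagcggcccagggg
HDAC3: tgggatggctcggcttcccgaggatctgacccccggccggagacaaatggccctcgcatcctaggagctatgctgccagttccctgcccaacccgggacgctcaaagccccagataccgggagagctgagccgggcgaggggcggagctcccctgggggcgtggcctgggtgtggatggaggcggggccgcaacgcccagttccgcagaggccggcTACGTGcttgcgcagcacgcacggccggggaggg
The KDM7A window holds 81.6% G and C, that of KDM4D 60.8% and that of HDAC3 70.8%, against a median of 65.6% over the member windows and 58.0% over all windows. A match describes letters and not binding, and its absence says only that these letters are not in this window.

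Among the methyltransferases, 1 of 16 tested genes rose and 4 fell (31.2% called), with a median log2 fold change of -0.07. SETD1B rose, while its close relative SETD1A, which like it places methyl groups on H3K4 at promoters, was not called. SETD1B was at 61.0, 45.5 and 52.1 CPM with the inhibitor and 35.0, 42.4 and 37.3 CPM with DMSO (log2 fold change 0.47 ± 0.12, adjusted p = 0.0090). The groups came close, at 45.5 against 42.4 CPM, and leaving out inhibitor replicate 1 raised the adjusted p to 0.0714. SETD1A stood at -0.06 ± 0.11 (adjusted p = 0.729), and the difference between the pair was not tested.

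Of the 5 KMT2 genes, which encode large H3K4 methyltransferases and their relative KMT2E, KMT2A and KMT2E fell and 0 rose. KMT2A, the MLL1 gene that is broken by translocation in leukaemia, was at 34.6, 36.3 and 47.4 CPM with the inhibitor and 48.6, 57.9 and 49.0 CPM with DMSO (-0.40 ± 0.13, adjusted p = 0.0274). Inhibitor replicate 3 lay just under the lowest DMSO library. KMT2E was at 57.2, 59.2 and 59.6 CPM with the inhibitor and 75.7, 66.1 and 77.7 CPM with DMSO (-0.32 ± 0.11, adjusted p = 0.0382). For KMT2A the adjusted p rose to 0.133 with inhibitor replicate 1 left out, 0.115 with inhibitor replicate 2 left out and 0.152 with DMSO replicate 2 left out. For KMT2E it ranged from 0.0883 to 0.124 with inhibitor replicate 1 or 2 or DMSO replicate 1 or 3 left out, and was 0.0707 in thinned libraries. The antisense gene KMT2E-AS1 had 10 to 26 counts per library and was not called, and these counts cannot bound antisense reads counted as KMT2E. KMT2B, KMT2C and KMT2D lay from -0.23 to -0.07.

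SETD2, the enzyme that trimethylates H3K36 behind elongating polymerase, and SETD7, which monomethylates H3K4 and many non-histone proteins, also fell. SETD2 was at 26.8, 36.7 and 33.0 CPM with the inhibitor and 44.2, 41.3 and 39.7 CPM with DMSO (-0.38 ± 0.12, adjusted p = 0.0311). SETD7 was at 85.8, 87.7 and 89.8 CPM with the inhibitor and 106, 118 and 106 CPM with DMSO (-0.33 ± 0.10, adjusted p = 0.0251). Neither gene overlapped between groups, and the inhibitor libraries of SETD7 lay close together. For SETD2 the adjusted p was 0.17 with inhibitor replicate 1 left out, 0.0973 with DMSO replicate 1 left out and 0.0787 with DMSO replicate 2 left out. For SETD7 it was 0.0653, 0.0724 and 0.123 with inhibitor replicate 1, inhibitor replicate 2 and DMSO replicate 2 left out. Of the 16 methyltransferase genes, 0 rose or fell with inhibitor replicate 1 left out, and 1 fell with inhibitor replicate 2 or DMSO replicate 2 left out and 2 with DMSO replicate 1 left out. The uncalled genes ran from SETDB2 at -0.33 ± 0.18 to SETD4 at 0.47 ± 0.26, and the H3K9 enzyme gene SETDB1 was at 0.23 ± 0.14.

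Of 17 deacetylase genes tested, 0 rose and 4 fell (23.5% called), with a median log2 fold change of -0.16, and 13 lay below 0. In 7 of the 17 every inhibitor library lay under every DMSO library, and in 2, SIRT6 and SIRT7, every one lay above. The same separation, with the inhibitor lower, was found for 18.7% of all tested genes, and with the inhibitor higher for 17.7%. The summed level of the deacetylase genes was 638.5 ± 10.1 CPM in the treated libraries (SD, n = 3) against 744 ± 13.6 CPM in the controls. Because HDAC1 and HDAC2 gave more counts than any other deacetylase gene, that sum follows them most. Of the deacetylase genes, 2 fell when inhibitor replicate 1 or DMSO replicate 1 was left out.

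The 4 class I genes, HDAC1, HDAC2, HDAC3 and HDAC8, encode deacetylases found mainly in the nucleus, and all but HDAC8 work in corepressor complexes. All 4 had separate groups with the inhibitor lower, from -0.41 to -0.28 on the log2 scale, and HDAC1 and HDAC3 were called. HDAC3, the enzyme of the NCOR complex, was at 25.8, 26.4 and 25.3 CPM with the inhibitor and 35.4, 32.7 and 34.9 CPM with DMSO (-0.41 ± 0.11, adjusted p = 0.0137). Its call held under the 14 alternatives, with an adjusted p of at most 0.0457. HDAC1 was at 122, 145 and 139 CPM with the inhibitor and 181, 183 and 150 CPM with DMSO (-0.34 ± 0.11, adjusted p = 0.0305). Inhibitor replicate 2 and DMSO replicate 3 nearly met, and the adjusted p was 0.124, 0.1005 and 0.135 with inhibitor replicate 1, DMSO replicate 1 and DMSO replicate 2 left out. HDAC2 was at 197, 222 and 210 CPM with the inhibitor and 238, 255 and 268 CPM with DMSO (-0.28 ± 0.10, adjusted p = 0.0546). That missed the threshold, while HDAC2 was called with DESeq2 (adjusted p = 0.0381), limma voom (0.0488), no count filter (0.0455) and library totals (0.0149). HDAC8 was at -0.32 ± 0.14 (adjusted p = 0.116).

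HDAC9 had the largest fall of all members. It belongs to class IIa, whose proteins shuttle out of the nucleus when phosphorylated and hold MEF2 factors inactive. Its level was 5.38, 5.66 and 6.97 CPM with the inhibitor and 11.01, 12.7 and 17.3 CPM with DMSO. The highest inhibitor library was well under the lowest DMSO library, and the level with the inhibitor was 0.439 times that with DMSO (log2 fold change -1.19 ± 0.19, adjusted p = 1.1e-04), on 52 to 208 counts per library. In the 13 alternatives that tested HDAC9 the log2 fold change ran from -1.33 to -0.996, and each called it. The other class IIa genes were not called: HDAC4 was at -0.02 ± 0.15, HDAC5 at -0.32 ± 0.14 and HDAC7 at -0.13 ± 0.11, and their difference from HDAC9 was not tested. HDAC5 had separate groups and was called with library totals alone (adjusted p = 0.0450). HDAC6 had the highest value of the class, at 0.45 ± 0.20 (adjusted p = 0.123), and its groups overlapped slightly, with 7.289 CPM in the lowest inhibitor library and 7.296 in the highest DMSO library.

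Of 6 sirtuin genes tested, SIRT1 fell. SIRT1, a nuclear enzyme that deacetylates p53, RELA and histones, was at 10.3, 11.97 and 12.7 CPM with the inhibitor and 18.8, 14.9 and 15.4 CPM with DMSO (-0.50 ± 0.15, adjusted p = 0.0216). The groups were separate, with DMSO replicate 1 the highest. Its adjusted p was 0.105 with inhibitor replicate 1 left out, 0.115 with DMSO replicate 1 left out and 0.0505 in thinned libraries. SIRT6, which acts on H3K9 and telomeric chromatin, and SIRT7, found in the nucleolus, stood at 0.18 ± 0.11 and 0.23 ± 0.12 and were not called (adjusted p = 0.267 and 0.199). SIRT5 was at -0.39 ± 0.34 on 9 to 31 counts per library. SIRT4 was not tested, with 2, 0 and 0 counts in the treated and 0, 2 and 0 in the control libraries.

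**Figure D3:**
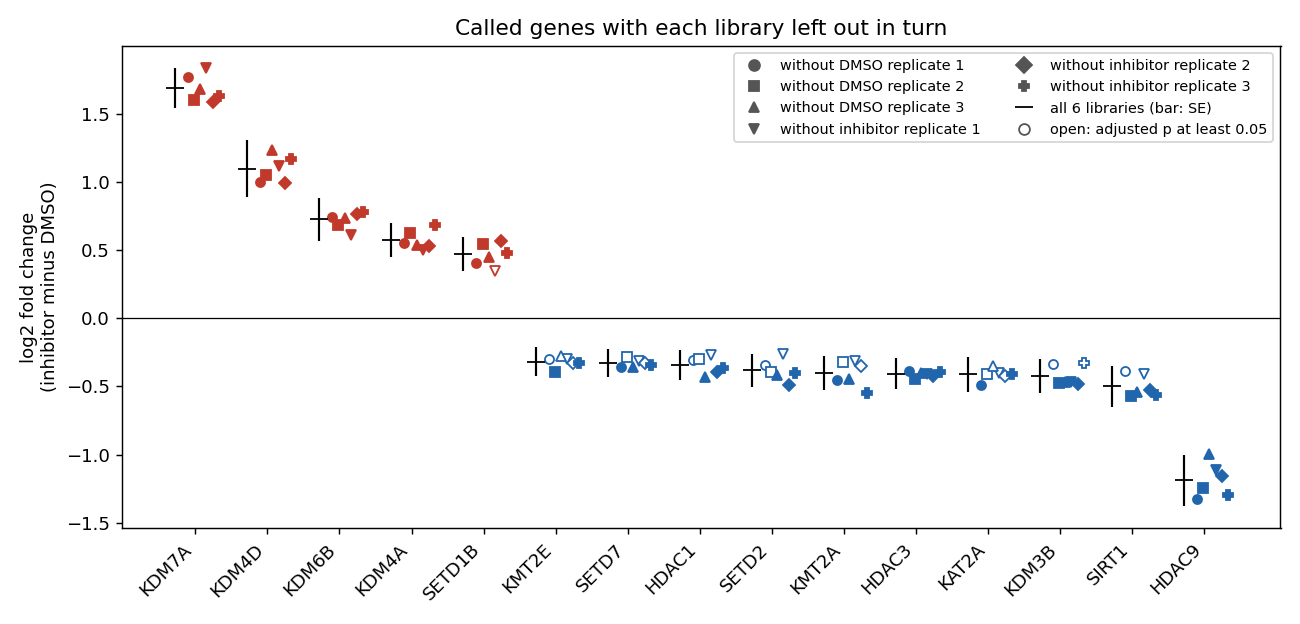
Log2 fold change of the 15 called genes with all 6 libraries (black marks, bars SE) and with each library left out in turn (coloured symbols, open where the adjusted p was at least 0.05). KDM7A, KDM4D, KDM6B, KDM4A, HDAC3 and HDAC9 keep filled symbols throughout, while each of the other genes plotted has at least 1 open symbol.

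Of the 8 acetyltransferase genes, all tested, 0 rose and 1 fell (12.5% called), and 7 lay below 0 with a median log2 fold change of -0.12. KAT2A (GCN5), the enzyme of the SAGA coactivator, was at 17.8, 18.2 and 18.0 CPM with the inhibitor and 21.4, 24.1 and 26.2 CPM with DMSO (-0.41 ± 0.13, adjusted p = 0.0263). The inhibitor libraries were nearly equal and all under the DMSO libraries. Its adjusted p lay between 0.0637 and 0.103 with inhibitor replicate 1 or 2 or DMSO replicate 2 or 3 left out, and 0 acetyltransferase genes fell with inhibitor replicate 2 or DMSO replicate 2 left out. KAT2B, its relative in the same complexes, was at -0.16 ± 0.16. Of the MYST enzymes, KAT7 (HBO1), which acetylates H3K14 at replication origins and promoters, averaged 204 ± 28.4 CPM in the treated and 215 ± 17.2 CPM in the control libraries (-0.08 ± 0.11), and KAT5 and KAT8 were at -0.09 and -0.06. KAT6A was at -0.33 ± 0.13 (adjusted p = 0.0741). It was called with inhibitor replicate 1 left out (0.0397) and with DMSO replicate 3 left out (0.0391). The call was also made with library totals (0.0264), with no count filter (0.0330) and with a replicate block (0.0464). KAT6B had the lowest value of the class, -0.55 ± 0.23 (adjusted p = 0.103), and 6.16 CPM in inhibitor replicate 3 against 3.14 and 3.15 in the other inhibitor libraries. With that library left out it was called (0.00837). KAT14, a subunit of the ATAC complex, was at 0.41 ± 0.19 (adjusted p = 0.129) and was called with inhibitor replicate 3 left out (0.0333) or DMSO replicate 1 left out (0.0335).

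Genes of related enzymes and of the complexes in which the members work were counted beside them, from lists that share 1 gene, JARID2. Of all tested genes, 20.2% were called. Of 12 tested subunits of PRC2, the complex that writes H3K27 methylation, 5 fell and 0 rose (41.7% called). The groups were separate in 7, with the inhibitor lower in 5 and higher in 2, against 18.7% and 17.7% of all tested genes. The 5 were those called, and the 2, EZH1 and JARID2, were not called (adjusted p = 0.187 and 0.174). The core subunit genes EED (-0.73 ± 0.13), SUZ12 (-0.57 ± 0.11) and the catalytic EZH2 (-0.55 ± 0.12) fell, with EZH2 at 55.7 CPM against 81.9. These 3 calls held under the alternatives. EPOP fell from 1.95 to 0.921 CPM (-1.06 ± 0.36), but its adjusted p was 0.0972 with DESeq2 and 0.0504 to 0.172 with any library but DMSO replicate 1 left out. MTF2, an accessory subunit, was the remaining gene that fell (-0.54 ± 0.14), with an adjusted p of 0.0599 when DMSO replicate 1 was left out.

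Of 15 subunits and partners of COMPASS, the assembly around KMT2 and SETD1 enzymes, 3 fell and 0 rose (20% called). That share was close to the 20.2% of all tested genes. The 3 were WDR5 (-0.61 ± 0.11), PSIP1 (-0.58 ± 0.14) and PAGR1 (-0.39 ± 0.12). For PAGR1 the adjusted p was 0.0804, 0.0748 and 0.0511 with inhibitor replicate 2, DMSO replicate 1 and DMSO replicate 2 left out. Of 39 corepressor subunits that carry deacetylases, 1 rose and 6 fell (17.9% called, under the 20.2% of all tested genes). The transcription factor gene TRERF1 (-0.84 ± 0.12) and the SIN3 subunit gene SAP30 (-0.81 ± 0.21) fell, and TBL1X of the NCOR complex rose (0.57 ± 0.12). RCOR2 had the lowest value of that list, -1.61 ± 0.48, at 0.401 CPM against 1.31, and its adjusted p was 0.0534 with DESeq2 and 0.0598 to 0.1002 with inhibitor replicate 2 or 3 or DMSO replicate 1 or 2 left out. For SAP30 it was 0.0513 with inhibitor replicate 1 left out. In this list 3 genes fell when DMSO replicate 2 was left out. Of 49 acetyltransferase complex subunits, 4 rose and 6 fell (20.4% called), again close to the 20.2% of all tested genes. SUPT20H (0.66 ± 0.15) and SGF29 (0.59 ± 0.14), both of SAGA-type complexes, rose, as did TADA3 (0.37 ± 0.10), with an adjusted p of 0.0540, 0.0630 and 0.0607 when inhibitor replicate 1, DMSO replicate 1 and DMSO replicate 2 were left out. MORF4L2 of the TIP60 complex (-0.64 ± 0.12), TAF6L (-0.53 ± 0.15) and ING5 (-0.51 ± 0.13) fell. For TAF6L the adjusted p was 0.0553 with DMSO replicate 3 left out, and for ING5 it was 0.0501 to 0.0579 with inhibitor replicate 1, DMSO replicate 2 or DMSO replicate 3 left out. In this list 2 rose and 2 fell with DMSO replicate 2 left out, 3 fell with inhibitor replicate 1 left out and 2 fell with DMSO replicate 3 left out.

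Of 20 other lysine methyltransferases, 2 rose and 4 fell (30.0% called, against 20.2% of all tested genes). SMYD4 (-0.78 ± 0.15) and the H3K9 enzyme gene SUV39H2 (-0.57 ± 0.11) fell, as did the H3K36 enzyme gene NSD1 (-0.54 ± 0.14), for which leaving out inhibitor replicate 2 raised the adjusted p to 0.0503. PRDM2 (0.96 ± 0.30) and PRDM8 (0.50 ± 0.14) rose. For PRDM2 the adjusted p was 0.0561 with DESeq2 and 0.0588 to 0.117 with inhibitor replicate 1 or 3 or DMSO replicate 1 or 2 left out, and for PRDM8 it was 0.0657 and 0.0553 with DMSO replicates 1 and 3 left out. In this list 2 genes fell with inhibitor replicate 2 left out. None of the list rose with DMSO replicate 1 left out, 2 rose with inhibitor replicate 2 left out, and 1 rose with any other library left out. Of 17 other acetyltransferases, 0 rose and 4 fell (23.5% called), a share near that of all tested genes. Among the 4 were ESCO2, a cohesin acetyltransferase of S phase (-0.83 ± 0.14), and the coactivator EP300 (-0.56 ± 0.12). EP300 averaged 36.95 CPM in the treated and 54.8 CPM in the control libraries. HAT1, which acetylates newly made histone H4, fell by 0.46 on the log2 scale, with an adjusted p of 0.08496 when inhibitor replicate 1 and 0.122 when DMSO replicate 3 was left out. With inhibitor replicate 1 left out, 2 genes of that list fell. Of 10 arginine methyltransferase genes and cofactors, 1 fell and 0 rose (10% called), under the share of all tested genes. The gene that fell was PRMT7 (-0.50 ± 0.13), with an adjusted p of 0.0514 when DMSO replicate 3 was left out. Of 12 other JmjC and related genes, JMJD4 and HSPBAP1 rose (both 0.42) and 0 fell. For JMJD4 the adjusted p was 0.0761 with library totals and 0.0832 to 0.1265 with inhibitor replicate 2, DMSO replicate 2 or DMSO replicate 3 left out. For HSPBAP1 it was 0.0650 with library totals, 0.0887 in thinned libraries and 0.0609 to 0.132 with inhibitor replicate 2 or 3 or DMSO replicate 2 or 3 left out.

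**Figure D4:**
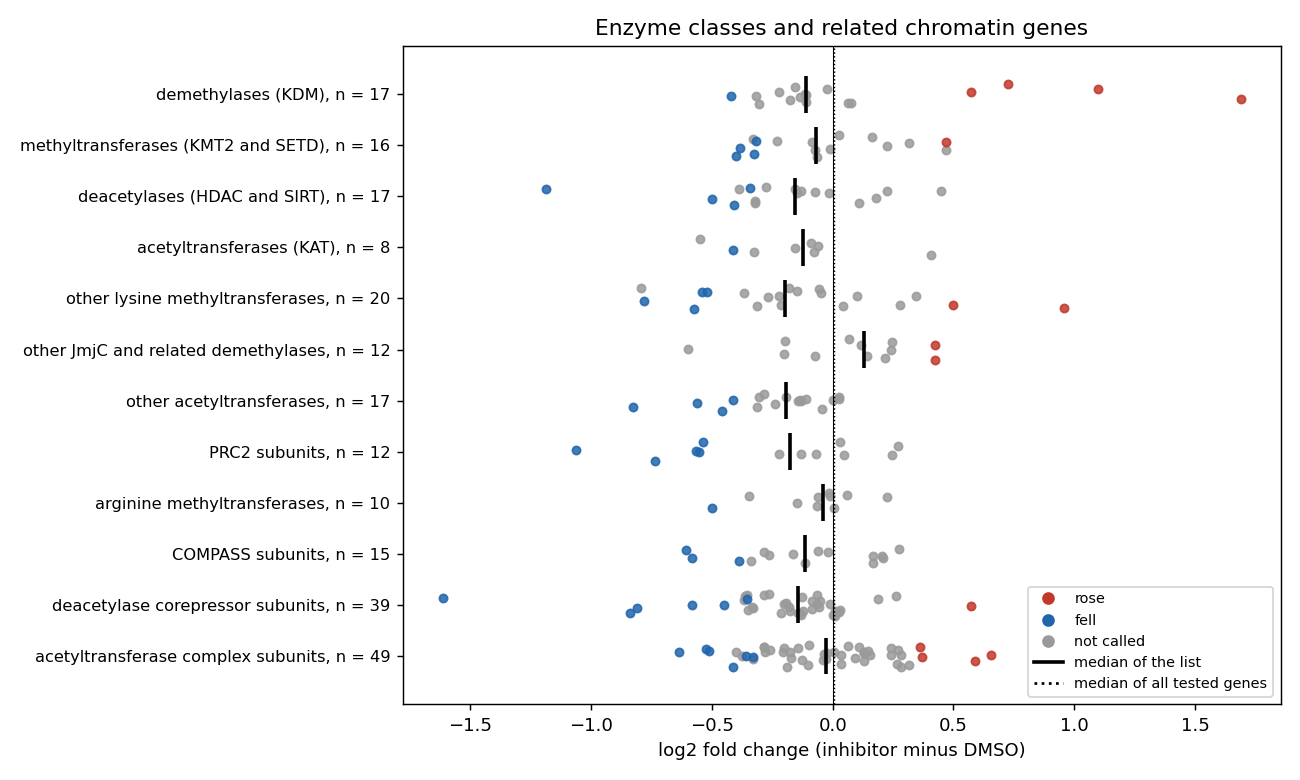
Log2 fold change of each tested gene (points, coloured by call) in the 4 enzyme classes and the 8 related lists, with the median of each list (thick line) and of all tested genes (dotted line). The list medians lie between -0.20 and 0.13, and the rises of KDM7A and KDM4D at 1.69 and 1.10 are the 2 highest points plotted.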

How the data were processed

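RNA of 6 HT-1080 cultures was reverse transcribed and parts of targeted transcripts were amplified with the Ion AmpliSeq Transcriptome panel for sequencing on the Ion Proton instrument, per the labels' protocols and the design text. A count therefore reports the amplified part, and cannot tell a change of the whole mRNA from one of an isoform. The deposited values are raw counts per gene symbol, 1 table per library, with no rows of unassigned reads. The submitters' processing notes list HTSeq, DESeq2 1.20.0 and hg19, with no role for each. For the aligner, annotation and strand setting nothing is stated: not given in the sources used here.

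Groups came from the titles. Genes with low counts were removed with filterByExpr by group (edgeR 4.0.16, R 4.3.3), which kept 11391 of 20683 genes, with 99.924% of the counts. TMM factors ran from 0.9735 to 1.047. Inhibitor and DMSO were compared by the quasi-likelihood test without covariates, with Benjamini-Hochberg adjustment over all tested genes, and rose and fell mean an adjusted p under 0.05. The SE was taken as the size of the log2 fold change over the root of the F statistic. CPM uses TMM-scaled totals of the tested genes. Within groups, chi-square over its degrees of freedom was 9.32 to 14.7, beyond sampling noise. That does not show that the libraries came from independent cultures. Each library counted as 1 replicate, as the series describes them. No molecular identifiers are mentioned, so amplified copies of 1 molecule may be counted more than once and limits at 0 counts (3 counts) cover counting error only.

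The members and lists were chosen with earlier results of these data known. Every called member is named, with the extremes of the uncalled members of each class and the one with the most counts, and from each list at most 3 called genes in each direction; further genes are named to complete a family and were picked after their values were seen. Alternatives were RLE size factors, library totals, no filter, a minimum mean of 10 CPM, DESeq2 1.42.0, limma voom (limma 3.58.1), a replicate block, thinning to the smallest library and each library left out. The test was checked on simulated data before use. There 11305 genes were fitted, and it called 46.9% of the 49 given a log2 change of 0.5 and 84% of the 50 given 1. Of its calls there, 6.86% were false. The share of changes missed in the data, where 20.2% of all tested genes were called, was not tested. Changes as small as most falls reported here can be missed.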

Additional observations from a re-analysis of the deposited data

How the results depend on the processing

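Under the 14 alternatives no member reversed a called direction. Of the 15 called genes, 6 (KDM7A, KDM4D, KDM6B, KDM4A, HDAC3 and HDAC9) stayed called wherever they were tested and 9 lost the call under at least 1 alternative, and 6 uncalled members were called under at least 1. KDM4D, KDM6B and HDAC9 were not tested at a minimum mean of 10 CPM, which tests fewer genes, where 3 members and 2 demethylases rose. With library totals, 2 demethylases and 2 acetyltransferases fell, and 10 acetyltransferase complex subunits, 2 arginine methyltransferases, 5 COMPASS subunits and 10 corepressor subunits fell, while 0 other JmjC genes rose. Without the count filter, 2 acetyltransferases and 1 other JmjC gene fell. In thinned libraries 0 demethylases fell and 1 other JmjC gene rose. With DESeq2, and with the 10 CPM minimum, 1 COMPASS subunit and 1 other lysine methyltransferase rose. The cause of these shifts was not tested. With each library left out in turn, 684 to 1133 of all genes rose and 721 to 1113 fell (fewest without DMSO replicate 2), 4 to 6 members rose and 4 to 10 fell. By class, 4 demethylases rose in each and 0 to 1 fell (0 without inhibitor replicate 3), 0 to 1 methyltransferases rose and 0 to 4 fell, 2 to 4 deacetylases fell, and 0 to 1 acetyltransferases rose and 0 to 2 fell. In the related lists 2 to 4 acetyltransferase complex subunits rose and 2 to 6 fell, 0 to 1 arginine methyltransferases fell, 2 to 4 COMPASS subunits fell, 3 to 7 corepressor subunits fell, 2 to 5 other acetyltransferases fell, 0 to 2 other JmjC genes rose, and 0 to 2 other lysine methyltransferases rose and 2 to 5 fell. The median over the methyltransferases was 0.0050 without inhibitor replicate 2, above 0. Library totals moved the median of all genes by -0.07 and that of the demethylases to -0.18. The settings of the related lists were added after the data were seen.

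Deviations of same-numbered libraries from their group means had r = 0.0317, -0.0166 and 0.00693 for numbers 1, 2 and 3. Differently numbered libraries had r from -0.0794 to 0.076. The numbers were not taken as pairs, though such values from 3 libraries a group cannot show that the libraries were handled unpaired. With the replicate block 11 members fell and 5 rose, 2 of the acetyltransferases fell, KAT6A (-0.33, adjusted p = 0.0464) beside KAT2A, and 1137 of all genes fell and 1086 rose. With 3 libraries a group, and few counts in members such as KDM8, HDAC11 and SIRT5, a missed threshold does not show that a gene did not differ.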
